A study of Mus musculus with 10 samples.

Results

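The mitosis and kinetochore genes described here are 44 genes whose products carry a cell from entry into mitosis to its division: cyclins and mitotic kinases, the spindle checkpoint, the chromosomal passenger complex, the kinetochore, spindle motors and the machinery of cytokinesis. They were taken by symbol from a table of read counts of mouse CD8+ T cells, in which they are 44 of 21898 genes (0.201%), and all 44 were among the 11403 genes with enough reads to be tested. The study isolated CD8+ T cells from the spleen of wild-type (WT) mice and kept them for 5 days in medium without an added agent (control) or with 10 mM N-acetylcysteine (NAC), an acetylated cysteine from which cells can make glutathione. Each group had 5 libraries of bulk messenger RNA, numbered 1 to 5 and made from 1.3 µg of total RNA with a SMARTER mRNA kit. Genotype, tissue, labelled cell type and length of culture were the same in both groups. Any activating stimulus, cytokine, strain, sex or age is not given in the sources used here, nor do they say whether a group's 5 libraries stand for 5 animals, 5 cultures or fewer. A p-value here thus sets a difference against library-to-library scatter, part or all of which may be technical.

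Mitosis begins when cyclin-dependent kinase 1 bound to cyclin A or B becomes active. Kinetochores, protein assemblies built on centromeres that carry the histone variant CENP-A, then attach the chromosomes to the spindle, and unattached kinetochores keep the anaphase-promoting complex (APC/C) in check until every chromosome is attached. Proliferating T cells transcribe these genes in late cell cycle, in large part through CHR elements (cell cycle genes homology regions) and CCAAT boxes in their promoters, to which the DREAM and MuvB complexes and NF-Y bind. In a bulk sample, fewer cells in mitosis and less of these transcripts per cell cannot be told apart.

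Libraries held 13.3 to 17.71 M reads assigned to genes. In both groups, principal component 1 of all tested genes (50.8% of the variance) parted libraries 1 and 2 from the rest, and the labels do not say how the sets differ. Cd4, which marks helper T cells, had 465 to 521 reads per M of the library (CPM) in libraries 1 and 2, against 0.766 to 2.76 CPM in libraries 3 to 5, which goes against the CD8+ label of the former. The 4 helper T cell markers summed to 604 to 659 CPM in libraries 1 and 2, where all 4 were above 1 CPM, and to 20.4 to 34.9 CPM in libraries 3 to 5. Cd8a, which encodes a chain of CD8, reached 202 to 271 CPM in the former and 488 to 667 CPM in the latter. Markers of B cells reached at most 13.5 CPM in sum and those of myeloid cells at most 16.5 CPM. Pax5 of B cells was at 0 in 7 of 10 libraries, but Cd79b was at 1.53 to 11.8 CPM. S100a8 and S100a9 of myeloid cells were at 0 in all 10, but Cd68 was at 5.82 to 15.8 CPM. Dendritic cell markers reached at most 17.75 CPM, mostly from Zbtb46, and natural killer cell markers at most 55.7 CPM, mostly from Eomes. Results are therefore given for all libraries and within each set, and the part of the set or of its Cd4-expressing cells in a result cannot be told apart from other differences between the sets. NAC 1 and NAC 2 differed more than other pairs of the same group and set. The chi-square per degree of freedom between their read counts was 28.55, against 2.4 to 4.4 for those pairs. Tests within the sets share 1 spread over all groups and sets, so their p-values and standard errors may understate the scatter of NAC 1 and NAC 2.

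With NAC, most of the 44 genes were higher in libraries 1 and 2 and lower in libraries 3 to 5. Within libraries 1 and 2, 24 of 44 rose and 0 fell (edgeR's quasi-likelihood test, Benjamini-Hochberg adjusted p below 0.05 over all tested genes), where 32.2% of all tested genes rose and 28.3% fell. Within libraries 3 to 5, 0 rose and 21 fell, against 15% and 14% of all tested genes. Over all 10 libraries 1 rose and 0 fell, against 6.69% and 4.88%. At an unadjusted p under 0.05, edgeR had 3 members lower in libraries 1 and 2, 2 higher in libraries 3 to 5, and 2 higher and 3 lower over all libraries, and DESeq2's adjusted test called 2 lower, 0 higher, and 2 higher with 1 lower in the same comparisons. No member was below 0 in the test of the difference at an unadjusted p under 0.05 in edgeR, nor in DESeq2's adjusted test. The difference between the sets was tested itself: the change in libraries 1 and 2 minus that in libraries 3 to 5 was above 0 for 27 genes and below 0 for 0, against 21.9% and 20% of all tested genes. The median log2 change of the 44 was 0.18 in libraries 1 and 2, -0.20 in libraries 3 to 5 and -0.010 over all, beside 0.042, 0.0041 and 0.012 for all tested genes. Cell type markers moved with NAC as well. Of the 5 markers listed for CD8 T cells, Cd3d, Cd3e and Cd3g encode CD3 chains that helper T cells carry too. In libraries 1 and 2 Cd8a was at 202 and 213 CPM in control and 238 and 271 CPM with NAC. Cd8b1 was there at 83.9 and 84.3 against 148 and 128 CPM. The 5 summed there to 877 to 885 CPM in control and 1265 to 1352 CPM with NAC. The 4 helper T cell markers summed to 625 to 643 and 604 to 659 CPM, and the 6 B cell markers to 2.32 to 3.15 and 12.02 to 12.2 CPM. The same sums in libraries 3 to 5 were 1521 to 1560 and 1979 to 2105 CPM, 20.4 to 23.1 and 31.2 to 34.9 CPM, and 5.90 to 9.002 and 11.8 to 13.5 CPM. Their part in the change of the members was not tested.

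The same opposition shows in the sum of the 44 genes. In control libraries 1 and 2 they summed to 7891 and 7966 CPM, and with NAC to 8323 and 8960 CPM. In control libraries 3 to 5 they summed to 7253, 7204 and 7176 CPM, and with NAC to 6213, 6292 and 6198 CPM. The groups did not overlap within either set: NAC was the higher in libraries 1 and 2 and the lower in libraries 3 to 5. By sign alone, 32 of 44 genes (72.7%) were higher with NAC in libraries 1 and 2 and lower in libraries 3 to 5, where 18.8% of all tested genes were. Within libraries 1 and 2 the NAC values lay above all controls for 27 members and below them for 5, against 39.3% and 34.8% of all tested genes, and within libraries 3 to 5 above for 2 and below for 34, against 27.1% and 27.5%. Over all libraries they lay above for 2 and below for 1, against 8.62% and 7.75%. By sign, 10 members were lower in both sets and 2, Cenpa and Cenpm, were higher in both. With the library set as a term in the fit over all libraries, 2 rose and 5 fell, against 20.1% and 16.4% of all tested genes.

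**Figure D1:**
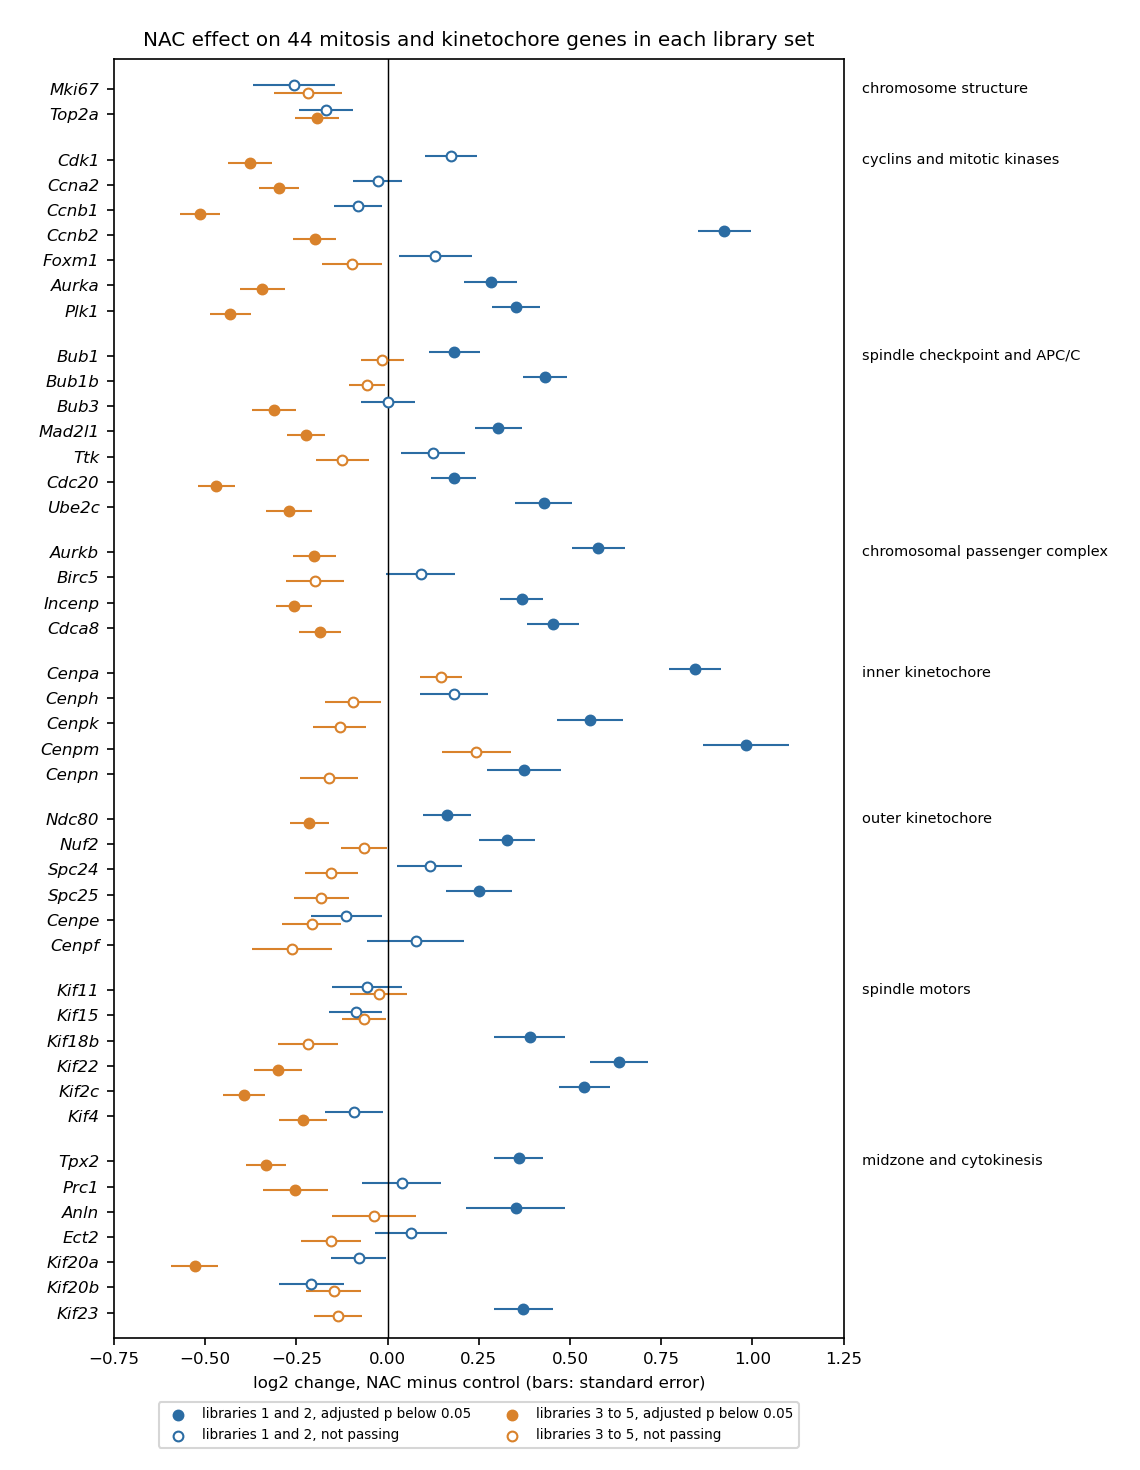
Log2 change with NAC (x axis, NAC minus control, bars show the standard error) of each of the 44 genes, grouped by role, in libraries 1 and 2 (blue) and libraries 3 to 5 (orange). Filled points passed the edgeR test at an adjusted p below 0.05: 24 blue points lie above 0 and 21 orange points lie below 0.

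Counting each gene by both tests, 13 rose in libraries 1 and 2 and fell in libraries 3 to 5, a combination met by 183 of all tested genes (1.6%). These 13 were Ccnb2, Plk1, Aurka, Aurkb, Incenp, Cdca8, Cdc20, Ube2c, Mad2l1, Ndc80, Kif2c, Kif22 and Tpx2. A further 11 rose in libraries 1 and 2 and did not pass in libraries 3 to 5, namely Cenpa, Cenpk, Cenpm, Cenpn, Nuf2, Spc25, Bub1, Bub1b, Kif18b, Kif23 and Anln. Another 8 did not pass in libraries 1 and 2 and fell in libraries 3 to 5, namely Cdk1, Ccna2, Ccnb1, Bub3, Top2a, Kif4, Kif20a and Prc1. The remaining 12 passed in neither set.

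With the library number as a block, 20 rose in libraries 1 and 2 (31% of all tested genes rose) and 17 fell in libraries 3 to 5 (12.4% fell), and 9 of the 13 kept both calls. The block ended the rises of Cdc20, Ndc80, Spc25 and Bub1 (edgeR adjusted p = 0.056, 0.0992, 0.0571 and 0.0724) and the falls of Ccnb2, Top2a, Cdca8 and Prc1 (edgeR adjusted p = 0.0584, 0.0563, 0.0661 and 0.0548). With library sizes alone as scaling, or with upper quartile factors, the falls of Ccnb2, Aurkb, Cdca8, Top2a and Prc1 were not called. Mad2l1, Ube2c, Incenp, Kif22, Kif2c and Tpx2 kept both calls in all 20 alternatives that tested both sets, although in a fit to libraries 1 and 2 alone the rise of Mad2l1 was not called (edgeR adjusted p = 0.0808). Leaving out 1 library of libraries 3 to 5 left 9 to 11 members with both calls, and several falls were then not called. These were that of Ccnb2 without control 4 or 5 or NAC 4 or 5, that of Aurkb without control 3 or 4 or NAC 4 or 5, that of Kif4 without control 4 or 5 or NAC 3 or 5, and those of Cdca8 and Top2a without any 1 of the 6 libraries of that set (edgeR adjusted p = 0.0513 to 0.139 over these fits). The fall of Prc1 was likewise not called without any 1 of these 6 libraries, nor that of Ndc80 without control 4. Among the rises in libraries 1 and 2, those of Ndc80 and Anln were not called without any 1 of the 6. That of Bub1 was not called without control 3, 4 or 5 or NAC 3, and those of Cdc20 and Spc25 were not called without control 3.

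The counts also moved with single libraries. Without NAC 1 the fit called 26 members higher and 0 lower in libraries 1 and 2 (33% and 30.1% of all tested genes) and 36 above and 0 below 0 in the test of the difference (25.1% and 23%). Without NAC 2 it called 26 higher and 8 lower (35% and 31.5%), and 30 above and 3 below 0 (29.7% and 27.5%). In each of these fits 1 NAC library remains in libraries 1 and 2 and is assumed to vary like the other groups. Libraries 3 to 5, which lose no library there, had 2 members higher and 32 lower in both fits, where 24.1% of all tested genes were lower without NAC 1 and 24% without NAC 2, so the share of all genes rose too. A fit to libraries 1 and 2 alone called 13 higher and 0 lower (23.7% and 20.1%), and one to libraries 3 to 5 alone 2 higher and 32 lower (23.7% and 25%).

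**Figure D2:**
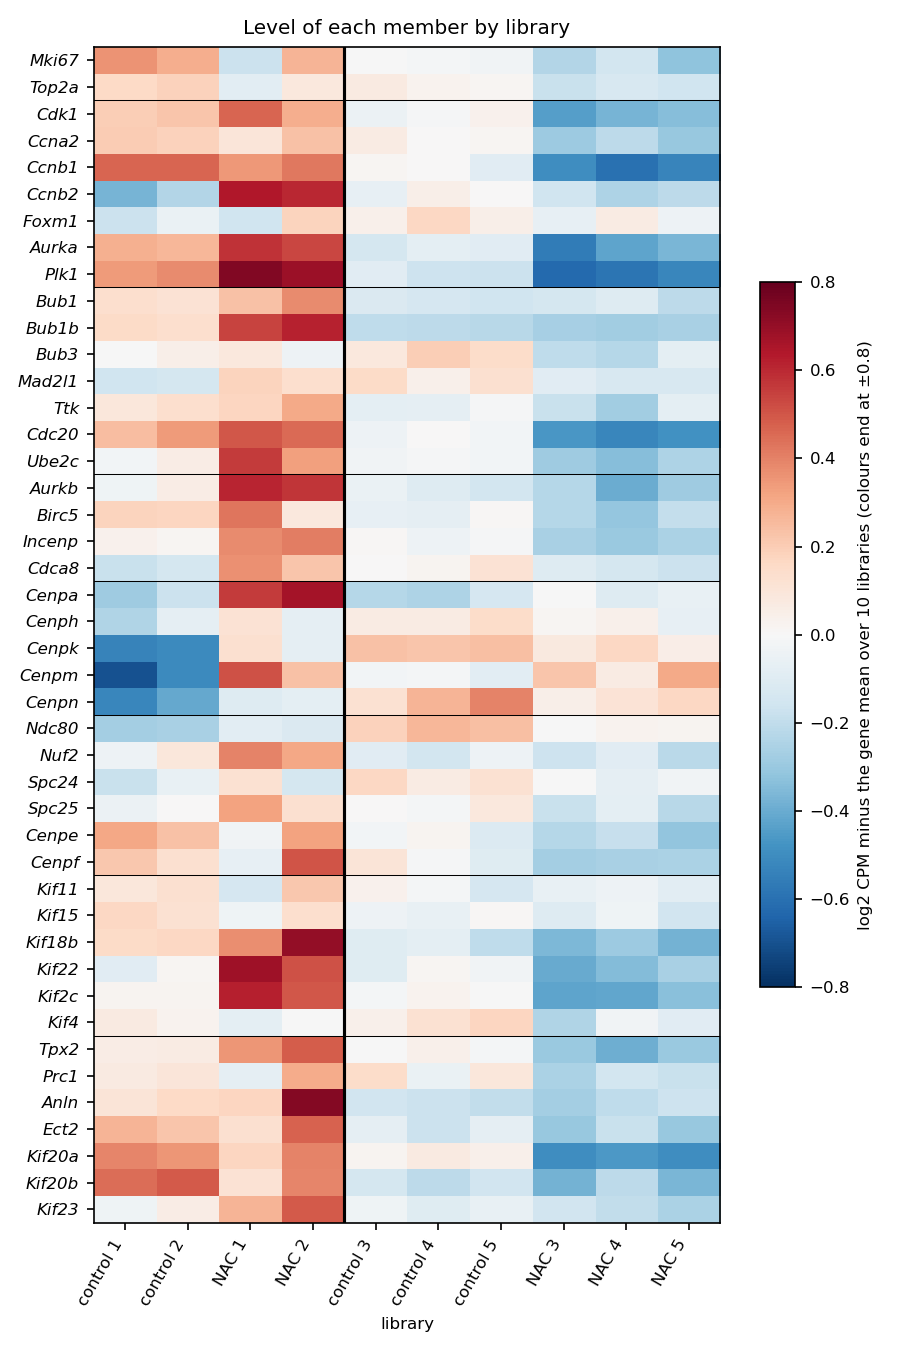
Level of each of the 44 genes (rows, grouped by role) in each library (columns), as log2 CPM minus that gene's mean over the 10 libraries, with colours ending at ±0.8. NAC libraries 1 and 2 are mostly red and NAC libraries 3 to 5 mostly blue, and Cenpk, Cenpm, Cenpn and Ndc80 have their lowest levels in control libraries 1 and 2.

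The role groups below hold 2 to 7 genes each, so their counts are not compared between roles. Among the genes of chromosome structure, Top2a and Mki67, 0 rose in libraries 1 and 2 (32.2% of all tested genes rose). In libraries 3 to 5, 0 rose and 1 fell (14% of all tested genes fell). Top2a encodes topoisomerase IIα, which untangles sister chromatids, and had the highest level per length of the 44 genes, at 123 ± 11.5 FPKM (read counts scaled to gene length and library size; mean and SD over all 10 libraries). Top2a was at 1236 and 1256 CPM in control and 1044 and 1173 CPM with NAC in libraries 1 and 2. The values in libraries 3 to 5 were 1162, 1130.1 and 1116 CPM in control and 978, 1013 and 991 CPM with NAC. NAC was lower in both sets without overlap, by a log2 difference of -0.17 ± 0.075 (SE, edgeR adjusted p = 0.066) in libraries 1 and 2 and -0.19 ± 0.061 (edgeR adjusted p = 0.0305) in libraries 3 to 5, and the test of the difference did not pass (0.024 ± 0.096, edgeR adjusted p = 0.859). The fall of Top2a in libraries 3 to 5 was not called with the replicate block (edgeR adjusted p = 0.0563). In libraries 1 and 2, Top2a was called lower with DESeq2 size factors, the DESeq2 test, limma-voom and no filter. With an offset for gene length, described below, its change in libraries 1 and 2 was 0.0048 and the difference between the sets, 0.24, passed (edgeR adjusted p = 0.0118). Mki67, which coats mitotic chromosomes and is widely used as a marker of proliferation, had log2 differences of -0.26 ± 0.11 and -0.22 ± 0.093 (edgeR adjusted p = 0.066 and 0.0961). It was called lower in libraries 1 and 2 with the DESeq2 test, limma-voom and no filter.

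Of the 7 cyclins and mitotic kinases 3 rose in libraries 1 and 2 (32.2% of all tested genes rose). In libraries 3 to 5, 6 fell (14% of all tested genes fell). Foxm1, a transcription factor that drives G2 and M phase genes, is counted here. Ccnb2, cyclin B2, showed the widest difference between the sets of all 44. It was at 90.4 and 99.8 CPM in control libraries 1 and 2, and at 182 and 178 CPM with NAC. Its level in libraries 3 to 5 was 112, 121 and 117 CPM in control and 105, 98.7 and 101 CPM with NAC. The groups did not overlap in either set and lay in opposite order. Ccnb2 thus rose 1.90-fold in libraries 1 and 2 (log2 0.92 ± 0.073, edgeR adjusted p = 3.79e-07) and fell 1.15-fold in libraries 3 to 5 (log2 -0.20 ± 0.059, edgeR adjusted p = 0.0235), a difference of 1.12 ± 0.094 (edgeR adjusted p = 4.22e-06). The rise and the difference passed in each other scaling, filter, block and tool tried, but the fall did not with library size alone, upper quartile factors, the replicate block or the length offset (edgeR adjusted p = 0.0678, 0.0693, 0.0584 and 0.102).

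Ccnb1, cyclin B1, did not follow Ccnb2 in libraries 1 and 2: its log2 change there was -0.080 ± 0.066 (edgeR adjusted p = 0.312), and -0.51 ± 0.055 in libraries 3 to 5 (edgeR adjusted p = 3.1e-05), a 1.43-fold fall. Plk1, the polo-like kinase of mitotic entry and spindle assembly, rose 1.28-fold in libraries 1 and 2 and fell 1.35-fold in libraries 3 to 5 (edgeR adjusted p = 0.000509 and 0.000152). Aurka, the Aurora kinase of the spindle poles, had log2 changes of 0.28 ± 0.073 and -0.34 ± 0.062 (edgeR adjusted p = 0.00471 and 0.00138). Cdk1, the kinase itself, fell 1.30-fold in libraries 3 to 5 (edgeR adjusted p = 0.000567), and its log2 change of 0.17 ± 0.072 in libraries 1 and 2 did not pass (edgeR adjusted p = 0.0501). Ccna2, cyclin A2, had log2 changes of -0.027 ± 0.067 and -0.30 ± 0.055 (edgeR adjusted p = 0.751 and 0.00173). Foxm1 passed in neither set, with log2 changes of 0.13 ± 0.10 and -0.098 ± 0.082.

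Of the 7 genes of the spindle checkpoint and the APC/C, 5 rose in libraries 1 and 2 (32.2% of all tested genes rose). In libraries 3 to 5, 4 fell (14% of all tested genes fell). Cdc20, the activator of the APC/C at anaphase, was at 259 and 276 CPM in control and 308 and 299 CPM with NAC in libraries 1 and 2. In libraries 3 to 5 it was at 212, 218 and 215 CPM in control and 158, 152 and 156 CPM with NAC. Every NAC library of libraries 1 and 2 lay above its controls, and every one of libraries 3 to 5 below. The log2 change was 0.18 ± 0.062 (edgeR adjusted p = 0.0209) and -0.47 ± 0.051 (edgeR adjusted p = 3.59e-05), and the difference 0.65 ± 0.080 (edgeR adjusted p = 6.42e-05). The rise of Cdc20 was not called with the replicate block (edgeR adjusted p = 0.056), and with the offset for gene length its change in libraries 1 and 2 was -0.054.

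Ube2c, the ubiquitin-conjugating enzyme that works with the APC/C, rose 1.34-fold in libraries 1 and 2 (edgeR adjusted p = 0.00037) and fell 1.21-fold in libraries 3 to 5 (edgeR adjusted p = 0.00712). Bub3, a scaffold of checkpoint proteins at the kinetochore, was at 207 and 214 CPM in control and 219.6 and 201 CPM with NAC in libraries 1 and 2. Control libraries 3 to 5 had 219, 237 and 229 CPM and NAC libraries 3 to 5 had 180.0, 176 and 196 CPM. The groups overlapped in the former set and not in the latter, where Bub3 fell by 0.31 ± 0.060 on the log2 scale (edgeR adjusted p = 0.00229). Mad2l1, the checkpoint protein that binds Cdc20, had log2 changes of 0.30 ± 0.064 and -0.22 ± 0.052 (edgeR adjusted p = 0.00113 and 0.00674). Bub1b, which encodes the Cdc20 inhibitor BubR1, rose by 0.43 ± 0.060 in libraries 1 and 2 (edgeR adjusted p = 4.34e-05) and was at -0.057 ± 0.050 in libraries 3 to 5. Bub1, its kinase relative, had 0.18 ± 0.070 (edgeR adjusted p = 0.0366) and -0.014 ± 0.058, and Ttk, the kinase that starts the checkpoint, passed in neither set (0.13 ± 0.087 and -0.12 ± 0.073). The rise of Bub1 was not called with DESeq2 size factors, the DESeq2 test, no filter, the replicate block or the offset for gene length.

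In the chromosomal passenger complex, which corrects faulty attachments, 3 of 4 genes rose in libraries 1 and 2 (32.2% of all tested genes rose). The same 3, Aurkb, Incenp and Cdca8, fell in libraries 3 to 5 (14% of all tested genes fell). Aurkb, its kinase, was at 142 and 152 CPM in control and 222 and 217 CPM with NAC in libraries 1 and 2. The values in libraries 3 to 5 were 140.2, 136 and 131 CPM in control and 124, 111 and 119 CPM with NAC. Both sets were without overlap, with log2 changes of 0.58 ± 0.072 (edgeR adjusted p = 1.85e-05) and -0.20 ± 0.060 (edgeR adjusted p = 0.0237). The fall of Aurkb was not called with library size alone or upper quartile factors (edgeR adjusted p = 0.0683 and 0.0733).

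Incenp, the scaffold of the complex, was at 229 and 226 CPM in control and 290.3 and 296 CPM with NAC in libraries 1 and 2. Its level in libraries 3 to 5 was 225, 217 and 222 CPM in control and 187, 182 and 187 CPM with NAC. The 5 control libraries of Incenp lay within 217 to 229 CPM in both sets, and the NAC libraries lay above that range in libraries 1 and 2 and below it in libraries 3 to 5 (log2 0.37 ± 0.059 and -0.26 ± 0.049, edgeR adjusted p = 0.000145 and 0.00191). Cdca8, which encodes borealin, had log2 changes of 0.45 ± 0.071 and -0.19 ± 0.058 (edgeR adjusted p = 0.000117 and 0.0291). Birc5, survivin, passed in neither set, at 0.091 ± 0.095 and -0.20 ± 0.078.

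**Figure D3:**
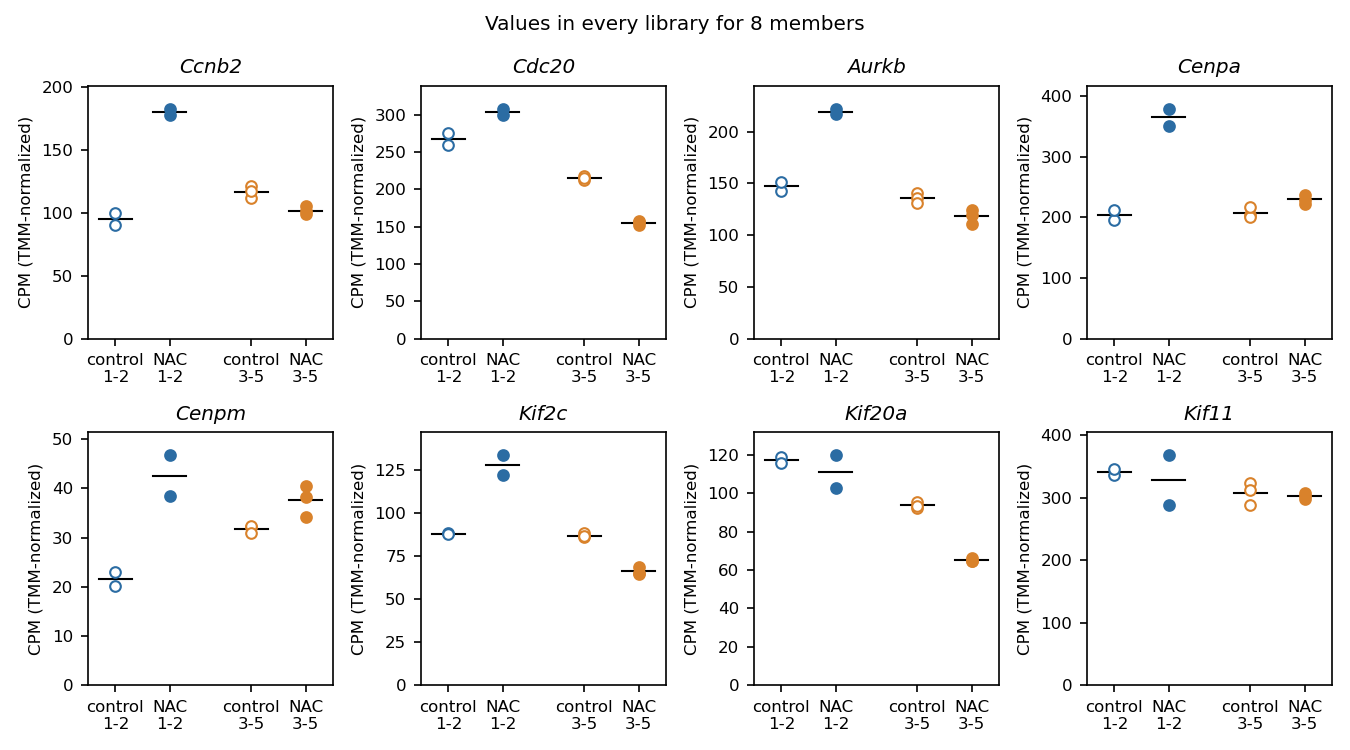
TMM-normalized CPM of 8 members in every library (points; open for control, filled for NAC; blue for libraries 1 and 2, orange for libraries 3 to 5), with the mean of each group as a line and axes from 0. Ccnb2, Cdc20, Aurkb and Kif2c lie above control with NAC in libraries 1 and 2 and below it in libraries 3 to 5, Cenpa and Cenpm lie above it in both sets, and Kif11 overlaps in both.

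Of the 5 inner kinetochore genes 4 rose in libraries 1 and 2 (32.2% of all tested genes rose). In libraries 3 to 5, 0 fell (14% of all tested genes fell). Cenpm, a subunit of the constitutive centromere-associated network, was the 1 member called over all 10 libraries. It was at 20.2 and 23.0 CPM in control and 46.7 and 38.5 CPM with NAC in libraries 1 and 2. In libraries 3 to 5 it was at 32.2, 32.4 and 30.9 CPM in control and 38.2, 34.2 and 40.5 CPM with NAC. Each of the 5 NAC libraries was above each of the 5 control libraries, at 39.6 ± 4.56 against 27.7 ± 5.74 CPM (SD, n = 5), a 1.43-fold rise (log2 0.52 ± 0.15, edgeR adjusted p = 0.0483). That call was lost with the library number as a block (edgeR adjusted p = 0.0548), a fit that called 0 members and 11.5% of all tested genes higher and 8.22% lower, and in each of the 10 fits without 1 library (edgeR adjusted p = 0.0549 to 0.107). Its log2 change was 0.98 ± 0.12 in libraries 1 and 2 (edgeR adjusted p = 1.21e-05) and 0.24 ± 0.094 in libraries 3 to 5 (edgeR adjusted p = 0.068), where it passed for Cenpm with library size alone, upper quartile factors and the length offset (edgeR adjusted p = 0.0304, 0.0382 and 0.00661).

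Cenpa, the centromeric histone H3 variant on which the kinetochore is built, was at 196 and 212 CPM in control and 351 and 379 CPM with NAC in libraries 1 and 2. Control libraries 3 to 5 had 204, 201 and 217 CPM and NAC libraries 3 to 5 had 237, 222 and 229 CPM. NAC was the higher without overlap in both sets, with log2 changes of 0.84 ± 0.072 (edgeR adjusted p = 7.26e-07) and 0.15 ± 0.059 (edgeR adjusted p = 0.0783). Within libraries 3 to 5, Cenpa passed with library size alone and upper quartile factors (edgeR adjusted p = 0.0405 and 0.0267). Over all libraries the change of 0.46 ± 0.16 did not pass (edgeR adjusted p = 0.0781). DESeq2 called Cenpa higher over all libraries (DESeq2 adjusted p = 0.0362), and so did the edgeR fit with the library set as a term. Cenpk and Cenpn, further subunits of that network, rose by 0.55 ± 0.091 and 0.37 ± 0.10 in libraries 1 and 2 (edgeR adjusted p = 0.000169 and 0.00574), and had -0.13 ± 0.072 and -0.16 ± 0.079 in libraries 3 to 5. Cenph passed in neither set.

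Of the 6 outer kinetochore genes 3 rose in libraries 1 and 2 (32.2% of all tested genes rose). In libraries 3 to 5, 1 fell (14% of all tested genes fell). Ndc80, of the complex that grips the microtubule, did both, with log2 changes of 0.16 ± 0.066 and -0.21 ± 0.053 (edgeR adjusted p = 0.0457 and 0.00906). The rise of Ndc80 was not called with DESeq2 size factors, the DESeq2 test, no filter, the 1 CPM filter or the replicate block. Its partners Nuf2 and Spc25 rose by 0.33 ± 0.077 and 0.25 ± 0.090 in libraries 1 and 2 (edgeR adjusted p = 0.00236 and 0.0277) and had -0.064 ± 0.064 and -0.18 ± 0.075 in libraries 3 to 5. Spc24, the remaining subunit, was at 70.8 and 76.9 CPM in control and 87.2 and 72.7 CPM with NAC in libraries 1 and 2, and the groups overlapped.

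In libraries 3 to 5 Spc24 was at 90.0, 84.0 and 87.1 CPM in control and 79.9, 76.1 and 78.5 CPM with NAC, lower without overlap, yet its log2 change of -0.15 ± 0.072 did not pass (edgeR adjusted p = 0.126). Cenpe, a kinesin that carries chromosomes to the spindle equator, was at 203 and 193 CPM in control and 161 and 205 CPM with NAC in libraries 1 and 2. The values in libraries 3 to 5 were 162, 167 and 152 CPM in control and 139.8, 144 and 132 CPM with NAC. The NAC libraries 1 and 2 lay on either side of their controls, and neither set passed (log2 -0.11 ± 0.097 and -0.21 ± 0.080, edgeR adjusted p = 0.33 and 0.0684). With the length offset Cenpe fell in libraries 3 to 5 (-0.25, edgeR adjusted p = 0.00172). Cenpf, a large protein of the outer kinetochore, had 0.078 ± 0.13 and -0.26 ± 0.11 and passed in neither.

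Among 6 spindle motors 3 rose in libraries 1 and 2 (32.2% of all tested genes rose). In libraries 3 to 5, 3 fell (14% of all tested genes fell). Kif2c, a kinesin that shortens microtubules at centromeres, was at 88.0 and 87.7 CPM in control and 133 and 122 CPM with NAC in libraries 1 and 2. Its level in libraries 3 to 5 was 85.7, 88.1 and 86.2 CPM in control and 64.6, 64.7 and 68.5 CPM with NAC. All 5 controls lay within 85.7 to 88.1 CPM, and the NAC libraries lay above that range in libraries 1 and 2 and below it in libraries 3 to 5, by 0.54 ± 0.070 and -0.39 ± 0.058 on the log2 scale (edgeR adjusted p = 2.45e-05 and 0.000381).

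Kif22, the chromokinesin that pushes chromosome arms outward, was at 111 and 119 CPM in control and 189 and 168 CPM with NAC in libraries 1 and 2. In libraries 3 to 5 it was at 110.1, 119 and 115 CPM in control and 89.2, 92.6 and 98.3 CPM with NAC. As for Kif2c, the controls of the sets overlapped and the NAC libraries did not (log2 0.63 ± 0.080 and -0.30 ± 0.066, edgeR adjusted p = 1.87e-05 and 0.00478). The difference between the sets was 0.93 ± 0.091 for Kif2c and 0.93 ± 0.10 for Kif22 (edgeR adjusted p = 1.33e-05 and 3.1e-05), which with Ccnb2 were the 3 smallest adjusted p-values of the 44 in that test.

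Kif11, the motor that pushes the spindle poles apart, was at 337 and 346 CPM in control and 288 and 368 CPM with NAC in libraries 1 and 2. Control libraries 3 to 5 had 323, 313 and 288 CPM and NAC libraries 3 to 5 had 303, 307 and 298 CPM. Its groups overlapped in both sets, and its log2 changes were -0.057 ± 0.096 and -0.025 ± 0.079 (edgeR adjusted p = 0.628 and 0.846). Kif4, a chromokinesin, was at 101 and 98.2 CPM in control and 91.0 and 96.1 CPM with NAC in libraries 1 and 2. The values in libraries 3 to 5 were 99.1, 105 and 109 CPM in control and 81.5, 94.3 and 90.2 CPM with NAC. It was the 1 member whose 5 NAC libraries all lay below its 5 controls, where 7.75% of all tested genes did, and it fell by 0.23 ± 0.066 in libraries 3 to 5 (edgeR adjusted p = 0.0188) and did not pass over all libraries (-0.18 ± 0.071, edgeR adjusted p = 0.125). With library size alone Kif4 did not pass in libraries 3 to 5 (edgeR adjusted p = 0.0602), and DESeq2 called it over all libraries (DESeq2 adjusted p = 0.0417). Kif18b, which limits the length of astral microtubules, rose by 0.39 ± 0.098 in libraries 1 and 2 (edgeR adjusted p = 0.00375), and Kif15, a helper of Kif11, passed in neither set.

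Of the 7 genes of the spindle midzone and cytokinesis 3 rose in libraries 1 and 2 (32.2% of all tested genes rose). In libraries 3 to 5, 3 fell (14% of all tested genes fell). Tpx2, counted here, activates Aurora A and nucleates spindle microtubules, and was at 235 and 237 CPM in control and 289 and 317 CPM with NAC in libraries 1 and 2. Its level in libraries 3 to 5 was 225, 233 and 223 CPM in control and 184, 173 and 184 CPM with NAC. Neither set overlapped, with log2 changes of 0.36 ± 0.067 and -0.33 ± 0.055 (edgeR adjusted p = 0.000466 and 0.00079).

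Kif20a, the kinesin that brings Aurora B to the midzone, was at 119 and 116 CPM in control and 102 and 119.6 CPM with NAC in libraries 1 and 2. In libraries 3 to 5 it was at 92.3, 95.3 and 93.3 CPM in control and 64.4, 66.0 and 64.4 CPM with NAC. It overlapped in the former set and showed the widest fall of the 44 in the latter, 1.44-fold (log2 -0.53 ± 0.064, edgeR adjusted p = 8.76e-05). Kif23, a motor of the centralspindlin complex, rose by 0.37 ± 0.080 in libraries 1 and 2 (edgeR adjusted p = 0.00136), as did Anln, the actin-binding anillin of the contractile ring (0.35 ± 0.14, edgeR adjusted p = 0.0388). The rise of Anln was not called with limma-voom or with no filter. Prc1, which bundles midzone microtubules, fell by 0.25 ± 0.089 in libraries 3 to 5 (edgeR adjusted p = 0.0473). The fall of Prc1 was not called with limma-voom, library size alone, upper quartile factors or the replicate block. Ect2, the exchange factor that switches on RhoA at the cleavage site, and Kif20b passed in neither set.

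The untreated cultures already differed between the sets. Control libraries 3 to 5 were higher than control libraries 1 and 2 for 9 members and lower for 15, against 26.2% and 25.3% of all tested genes, with a median log2 difference of -0.12. Values of libraries 3 to 5 lay above those of 1 and 2 for 11 and below for 24, against 37.1% each way. The 9 were Ccnb2, Mad2l1, Cdca8, Cenph, Cenpk, Cenpm, Cenpn, Ndc80 and Spc24, 6 of them of the kinetochore. Cenpk was the widest of these, at 26.8 and 27.2 CPM in control libraries 1 and 2 and 45.6, 45.3 and 45.9 CPM in control libraries 3 to 5 (log2 0.75 ± 0.084, edgeR adjusted p = 7.59e-06). Kif20b was the widest of the 15, at 139 and 144 CPM against 92.8, 88.3 and 91.9 CPM (log2 -0.64 ± 0.082, edgeR adjusted p = 2.86e-05). Without control library 1, 8 members in place of 15 were called lower (18.5% of all tested genes), in a fit that assumes the 1 remaining control library of libraries 1 and 2 to vary like the other groups.

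With NAC the sets lay further apart. NAC libraries 3 to 5 were lower than NAC libraries 1 and 2 for 33 of 44 members and higher for 0, against 30.3% and 29.2% of all tested genes, with a median log2 difference of -0.51. At an unadjusted p under 0.05 edgeR had 1 higher, and DESeq2's adjusted test called 0. Values lay above for 2 and below for 34, against 34% and 34.2%. Plk1 was at 171 and 165 CPM in NAC libraries 1 and 2 and at 66.6, 68.3 and 71.4 CPM in NAC libraries 3 to 5, a 2.44-fold difference (edgeR adjusted p = 2.84e-09). In control Plk1 was at 129.8 and 133 against 96.3, 91.4 and 90.7 CPM, 1.42-fold. These comparisons share their libraries with the NAC comparisons above and are not separate evidence.

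Gene length moved with the result in libraries 1 and 2. Over all tested genes the median log2 change with NAC there was 0.25 for genes under 3000 bases, 0.066 for 3000 to 6000 bases and -0.17 above 6000 bases, and NAC 2 differed from NAC 1 in the opposite order (-0.22, 0.0025 and 0.24). The 9, 21 and 14 members of these classes had medians of 0.35, 0.25 and 0.020, each above that of all tested genes of the class. The member medians in libraries 3 to 5 were -0.20 in all 3 classes, beside -0.047, 0.0047 and 0.045 for all tested genes.

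An offset for gene length in each library, chosen after seeing the data, left 22 members higher and 1 lower in libraries 1 and 2, where 31.2% and 30.7% of all tested genes were called. It left 1 higher and 27 lower in libraries 3 to 5 (17% and 18.7% of all tested genes), and 33 above and 0 below 0 in the test of the difference (21.4% and 20.8%). Besides Cdc20, the rises of Plk1, Aurka, Bub1 and Spc25 in libraries 1 and 2 were not called with it, nor was the fall of Ccnb2 in libraries 3 to 5. Gained calls include the rises of Cdk1, Cenpf and Kif15 and the fall of Ccnb1 in libraries 1 and 2. The differences of Top2a, Cenpf, Cenpe, Kif15, Anln, Prc1 and Foxm1 between the sets were gained too.

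**Figure D4:**
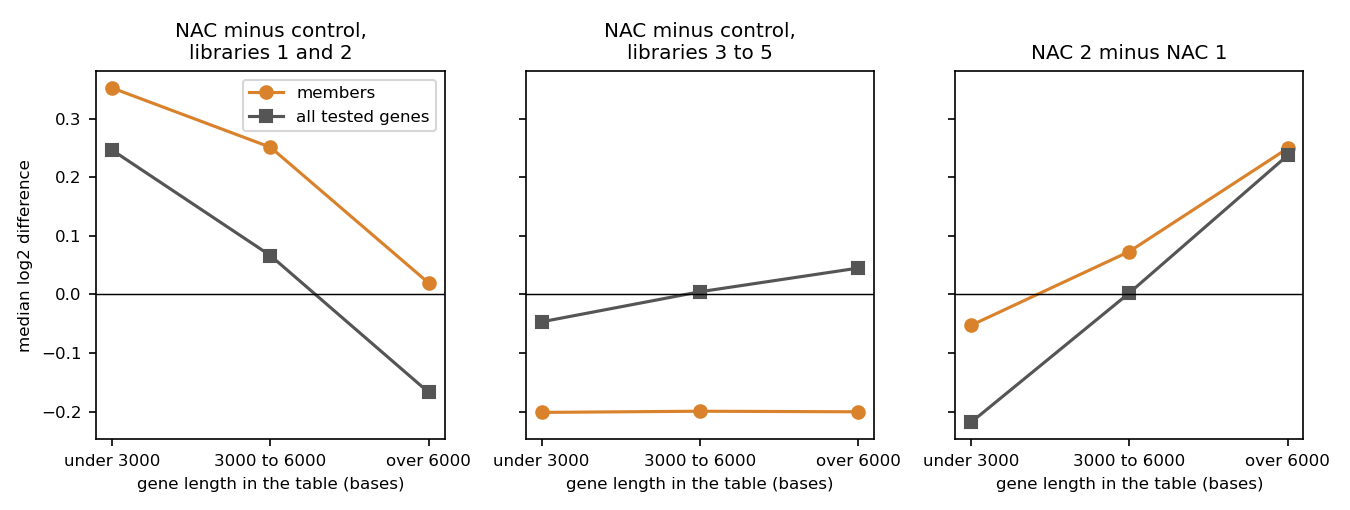
Median log2 difference (y axis) of the 44 members (orange circles) and of all tested genes (grey squares) in 3 classes of gene length (x axis, bases), for NAC against control in libraries 1 and 2 (left), in libraries 3 to 5 (middle) and for NAC 2 against NAC 1 (right). In the left panel both lines fall with length and the members stay above all genes, and in the middle panel the members stay at -0.20 in each class.

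Promoters were read because CHR elements and CCAAT boxes are known in promoters of late cell cycle genes. The members were listed as such genes, so the shares below describe the list and not the response to NAC. RefSeq promoter windows of GRCm38.p6, 250 bases before to 50 after the first listed start of a gene, were matched to 37 of 44 members, and Foxm1, Ccna2, Tpx2, Spc24, Kif20a, Incenp and Aurkb had no entry. The CHR was searched as TTTGAA or TTCGAA and the NF-Y box as CCAAT, on both strands. A CHR was in 30 of 37 members (81.1%), beside 19.4% of 27025 genes with a window, and in 27 of them within 50 bases of the start. The share of all genes with a CHR that near was not counted. A CCAAT box was in 29 (78.4%), beside 37.9%, and at least 2 in 20 (54.1%), beside 12.2%. Both motifs were in 25 (67.6%), beside 7.7%, and in 1 member, Cdca8, a CHR and a CCAAT box overlapped. These matches describe letters and not bound sites.

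**Figure D5:**
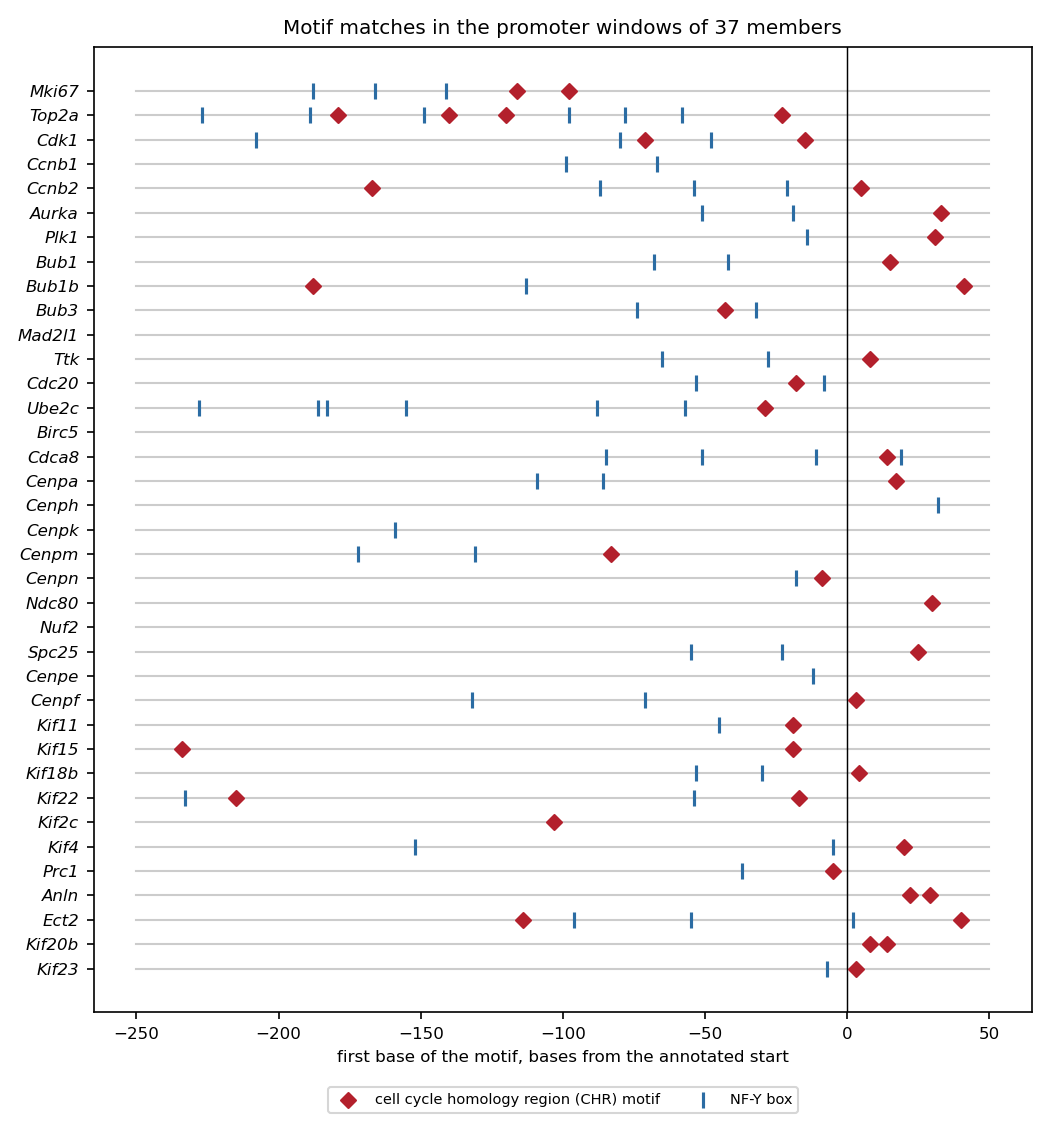
Position of each CHR motif (red diamonds) and NF-Y box (blue bars) in the promoter windows of the 37 members with an entry (rows), in bases from the annotated start (x axis, vertical line). In 27 of the 30 members with a CHR at least 1 diamond lies within 50 bases of the start.

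Windows with a CHR occurred among members of every pattern. It was in 9 of 10 windows of genes that rose in libraries 1 and 2 and fell in libraries 3 to 5, in 9 of 11 of those that rose in libraries 1 and 2 alone, in 5 of 6 of those that fell in libraries 3 to 5 alone and in 7 of 10 of those that passed in neither. Windows from 120 bases before to 30 after the start are shown for 7 members, chosen after their values were seen, to let the movers be read beside others: Ccnb2, Kif22, Ube2c and Cdc20 moved in opposite directions in the sets, Cenpm was higher in both, Ccnb1 fell in libraries 3 to 5 alone and Kif11 passed in neither. Each is 5′ to 3′ on the strand of the gene, and capitals mark CHR and CCAAT matches, written TTCAAA and ATTGG where they lie on the opposite strand.
Ccnb2, chr9:70421525-70421674, minus strand: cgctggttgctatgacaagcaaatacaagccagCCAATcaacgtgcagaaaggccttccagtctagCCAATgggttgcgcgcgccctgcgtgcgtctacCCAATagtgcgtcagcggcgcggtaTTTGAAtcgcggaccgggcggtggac
Kif22, chr7:127042391-127042540, minus strand: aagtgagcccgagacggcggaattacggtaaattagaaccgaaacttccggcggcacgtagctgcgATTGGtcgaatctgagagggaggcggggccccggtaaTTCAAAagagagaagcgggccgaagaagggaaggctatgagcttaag
Ube2c, chr2:164769809-164769958, plus strand: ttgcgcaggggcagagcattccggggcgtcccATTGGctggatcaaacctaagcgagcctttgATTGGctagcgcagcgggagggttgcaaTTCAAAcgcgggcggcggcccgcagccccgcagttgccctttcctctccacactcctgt
Cdc20, chr4:118437314-118437463, minus strand: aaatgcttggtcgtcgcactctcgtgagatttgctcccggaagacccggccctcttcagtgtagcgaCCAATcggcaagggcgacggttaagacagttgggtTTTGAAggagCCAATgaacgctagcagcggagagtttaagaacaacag
Cenpm, chr15:82244307-82244456, minus strand: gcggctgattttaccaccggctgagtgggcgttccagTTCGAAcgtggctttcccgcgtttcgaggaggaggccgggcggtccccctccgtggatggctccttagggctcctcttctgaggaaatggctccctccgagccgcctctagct
Ccnb1, chr13:100786457-100786606, minus strand: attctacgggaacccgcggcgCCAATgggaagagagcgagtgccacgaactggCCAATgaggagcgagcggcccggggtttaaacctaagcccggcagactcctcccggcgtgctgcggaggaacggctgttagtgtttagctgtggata
Kif11, chr19:37376262-37376411, plus strand: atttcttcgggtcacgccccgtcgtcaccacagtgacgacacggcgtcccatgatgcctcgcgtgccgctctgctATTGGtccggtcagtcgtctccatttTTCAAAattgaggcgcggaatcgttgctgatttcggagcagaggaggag
In these windows Ccnb2 and Cdc20 hold CCAAT boxes and a CHR on the strand of the gene, and Ube2c, Kif22 and Kif11 hold both on the opposite strand. Cenpm holds the TTCGAA form, 83 bases before the start, and Ccnb1 holds 2 CCAAT boxes and no CHR in its window.

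Other genes of the same processes were read from lists of related complexes. Of all tested genes, 32.2% rose and 28.3% fell in libraries 1 and 2, and 15% and 14% in libraries 3 to 5. Over all libraries 6.69% rose and 4.88% fell, and in the test of the difference 21.9% lay above 0 and 20% below. Counts near these shares show nothing particular to a list. Of 30 other kinetochore and centromere genes, 7 rose and 5 fell in libraries 1 and 2 and 1 rose and 6 fell in libraries 3 to 5. Cenpo, of the same centromere network as Cenpm, rose over all libraries (35.8 ± 6.13 against 26.7 ± 1.56 CPM, SD, n = 5, edgeR adjusted p = 0.0435), and Trip13, which disassembles the checkpoint complex, fell (81.4 ± 4.85 against 96.7 ± 1.97 CPM, edgeR adjusted p = 0.0395). Of 20 other spindle and cytokinesis genes, 11 rose and 1 fell in libraries 1 and 2, and 1 rose and 7 fell in libraries 3 to 5. In the test of the difference, 13 of these 20 genes lay above 0 and 0 below. Their highest and lowest log2 changes in libraries 3 to 5 were 0.51 ± 0.069 for Psrc1 (edgeR adjusted p = 0.000186) and -0.67 ± 0.14 for Fam83d (edgeR adjusted p = 0.00321).

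Of 19 APC/C subunits and regulators 8 rose and 3 fell in libraries 1 and 2 (32.2% and 28.3% of all tested genes). In libraries 3 to 5, 0 rose and 5 fell (15% and 14% of all tested genes). There Anapc11, its RING subunit, had the lowest log2 change at -0.39 ± 0.064 (edgeR adjusted p = 0.000661) and Cdc26 the highest at 0.15 ± 0.093 (edgeR adjusted p = 0.247). Of 18 genes of condensin and cohesin, which shape and hold chromatids, 5 rose and 9 fell in libraries 1 and 2, and 0 rose and 4 fell in libraries 3 to 5. The range in libraries 3 to 5 ran from -0.22 ± 0.064 for Cdca5, which encodes sororin (edgeR adjusted p = 0.0187), to 0.17 ± 0.12 for Nipbl, the cohesin loader (edgeR adjusted p = 0.304). Of 16 entry and exit switches 6 rose and 2 fell in libraries 1 and 2, and 0 rose and 6 fell in libraries 3 to 5. Arpp19, an inhibitor of the phosphatase that opposes Cdk1, and Cdc25a, the phosphatase that activates cyclin-dependent kinases, fell over all libraries by 0.44 ± 0.096 and 0.49 ± 0.14 on the log2 scale (edgeR adjusted p = 0.0188 and 0.0401).

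Genes of the earlier cell cycle were counted in the same way. Beside them, 6.69% of all tested genes rose and 4.88% fell over all libraries. The shares were 32.2% and 28.3% in libraries 1 and 2 and 15% and 14% in libraries 3 to 5. Of 25 genes of replication licensing and S phase 0 rose and 5 fell over all libraries, 6 rose and 7 fell in libraries 1 and 2, and 0 rose and 14 fell in libraries 3 to 5. Ccne2, cyclin E2, was at 22.9 ± 2.53 CPM with NAC against 51.1 ± 7.29 in control, and Tyms, thymidylate synthase, at 68.8 ± 4.53 against 119 ± 8.70 CPM (SD, n = 5, edgeR adjusted p = 0.000751 for both). In libraries 1 and 2 Ccne2 fell by 1.49 and Tyms by 0.88 on the log2 scale, where Ccnb2 rose by 0.92. Among 20 tested MuvB, MYB and E2F regulators 1 rose and 4 fell over all libraries: the atypical repressors E2f7 and E2f8 had log2 changes of -1.10 ± 0.24 and -0.56 ± 0.13 (edgeR adjusted p = 0.018 and 0.0225), and Rbl2, which encodes the p130 subunit of DREAM, had 0.55 ± 0.15 (edgeR adjusted p = 0.0378).

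Of 4 tested inhibitors of cyclin-dependent kinases, Cdkn2d (p19) rose over all libraries, from 34.7 ± 2.53 to 52.5 ± 14.9 CPM (SD, n = 5, edgeR adjusted p = 0.0457). Cdkn1a (p21) had log2 changes of 0.037 ± 0.064 in libraries 1 and 2 and -0.70 ± 0.054 in libraries 3 to 5 (edgeR adjusted p = 0.641 and 2.48e-06). Cdkn1b (p27) rose in both, by 0.44 ± 0.15 and 0.34 ± 0.12 (edgeR adjusted p = 0.0192 and 0.0419). Cdkn2c (p18) rose by 0.59 ± 0.10 in libraries 1 and 2 (edgeR adjusted p = 0.000336) and had -0.19 ± 0.080 in libraries 3 to 5 (edgeR adjusted p = 0.1).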

How the data were processed

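Bulk RNA-seq of 5 control and 5 NAC libraries was analysed from the table of the whole series, in which the authors deposited raw read counts and FPKM per gene, per the file headers. The submitters' processing notes name GRCm38 and mm10; which programs aligned and counted the reads, and with which gene models, is not given in the sources used here. Deposited FPKM followed from the counts, gene lengths and totals to within 0.0012% and were used only to compare levels between genes. Counts were tested with edgeR 4.0.16 (R 4.3.3; TMM scaling, filterByExpr, robust quasi-likelihood F test, Benjamini-Hochberg adjustment over 11403 genes), either NAC against control over all libraries or with 1 mean for each group and set. CPM are TMM-normalized. Alternatives were DESeq2 1.42.0, limma 3.58.1 (voom), other scalings and filters, the library number as a block, each library left out, each set alone and, chosen after seeing the data, a gene length offset. Per-gene deviations correlated between libraries of the same number (r = 0.485 to 0.596), and as much between other libraries of the same set (0.468 to 0.583), and 3 of 10 libraries correlated best with the same number. Every same-number r passed the 0.1 set for treating numbers as pairs, but the data do not tell a shared number from a shared set, so tests are without the number and the block is given where it changes a call. The common coefficient of variation was 26.6% over all libraries and 7.43% with sets separate. Values in every library are given, in each role, for the member with the highest mean FPKM and that with the smallest adjusted p over all libraries, and for the 3 members with the smallest adjusted p in the test between sets. From each other list up to 2 called genes a direction are named, or the extremes in libraries 3 to 5. Plk1, Cenpk and Kif20b in full, and fits of further members, were added after values were seen. The members and gene lists were chosen with earlier results of these data known.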

Additional observations from a re-analysis of the deposited data

Results flagged for a closer look

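By Dixon's test at the 95% level, 5 of the 88 groups of 5 libraries tested (44 members in control and in NAC) held a library far from the others. Chance passes this test in about 1 of 20 groups when all values come from 1 population. Each group here joins both library sets, so that rate need not hold and the count of 5 cannot be set against it. NAC 2 was the highest of the NAC libraries for Mki67 at 986 CPM, Kif11 at 368 CPM, Cenpf at 151 CPM and Prc1 at 91.0 CPM, and control 2 was the highest control library for Ube2c at 189 CPM.

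The log2 change with NAC in libraries 1 and 2 minus that in libraries 3 to 5 differed from 0 in edgeR's interaction test for 27 of 44 members, each above 0 (21.9% of all tested genes lay above 0 and 20% below). Among cyclins and kinases it was 1.12 for Ccnb2, 0.78 for Plk1, 0.63 for Aurka, 0.55 for Cdk1, 0.43 for Ccnb1 and 0.27 for Ccna2, the last of which was not called with the replicate block. Among checkpoint and APC/C genes it was 0.70 for Ube2c, 0.65 for Cdc20, 0.53 for Mad2l1, 0.49 for Bub1b and 0.31 for Bub3, and in the passenger complex 0.78 for Aurkb, 0.64 for Cdca8 and 0.62 for Incenp. In the kinetochore it was 0.74 for Cenpm, 0.70 for Cenpa, 0.69 for Cenpk, 0.53 for Cenpn, 0.43 for Spc25, 0.39 for Nuf2 and 0.38 for Ndc80. Among motors and midzone genes it was 0.93 for both Kif2c and Kif22, 0.69 for Tpx2, 0.61 for Kif18b, 0.51 for Kif23 and 0.45 for Kif20a. The sets also differ in Cd4 and Cd8a, and the part of that in these values cannot be told apart from other differences between the sets.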

How the results depend on the processing

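Depth allowed all 44 members to be tested, and the small number of libraries (2 and 3 a group within the sets) limits precision. Cd4 and gene length move with the sets, and their part in the results was not tested beyond the length offset. Upper quartile factors moved the median of all genes in libraries 1 and 2 from 0.042 to 0.15.

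Over all libraries, 2 members were called higher and 1 lower with DESeq2 (10.9% and 9.16% of all tested genes). With no filter 0 were higher (3.64%), and with the replicate block 0 (11.5%). The set as a term gave 2 higher and 5 lower (20.1% and 16.4%), and 3 were lower with the length offset and block (13.4%). In libraries 1 and 2, DESeq2 size factors called 2 lower, Top2a and Kif20b (29.2% of all tested genes), and DESeq2 called 2, Top2a and Mki67 (28.7%). Limma-voom and no filter each called 3 lower, Top2a, Kif20b and Mki67 (28.9% and 22.3%). A 1 CPM filter called 1, Kif20b (29.5%), and the length offset 1, Ccnb1 (30.7%). In that set fitted alone 13 were higher (23.7%). The median there was 0.21 with library size alone, 0.29 with upper quartile factors, 0.13 with no filter, 0.16 with the length offset and 0.15 with offset and block. In libraries 3 to 5 the count called higher was 2 with library size (17.4% of all tested genes) and 2 with upper quartile (18.4%). That set alone had 2 higher and 32 lower (23.7% and 25%). The length offset called 1 higher (17%), and so did offset and block (15.9%). The median was -0.16 with library size and -0.15 with upper quartile. The median of the difference between sets was 0.49 with upper quartile and 0.39 with no filter. Between control sets the median was -0.15 with library size, -0.14 with a 1 CPM filter and -0.076 with the length offset. Between NAC sets it was -0.57 with upper quartile and -0.45 with no filter. There 1 member was higher with no filter (23.3% of all tested genes) and 1 with the length offset (30.5%). With the replicate block 20 rose in libraries 1 and 2 (31% of all tested genes) and 17 fell in libraries 3 to 5 (12.4%). In the test of the difference 26 lay above 0 with it (20.4%). The block ended the calls of Cenpm over all libraries and of Cdc20, Ndc80, Spc25 and Bub1 in libraries 1 and 2. It also ended those of Ccnb2, Top2a, Cdca8 and Prc1 in libraries 3 to 5. That of Ccna2 for the difference ended too (0.27, edgeR adjusted p = 0.0549), and no other call of a member. The causes were not tested.

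Leaving out each library gave 0 called higher and 0 lower over all libraries (median -0.086 to 0.018). Of all tested genes, 3.59% to 6.32% were then higher and 1.85% to 5.92% lower. Where it leaves 1 library in a group of libraries 1 and 2, that library is assumed to vary like the other groups. The counts below are therefore those without 1 of libraries 3 to 5, and the medians are over all 10 fits. In libraries 1 and 2, 19 to 22 members were higher and 0 lower, against 30.5% to 31.6% and 26.7% to 27.9% of all tested genes (0.17 to 0.26). In libraries 3 to 5, 0 were higher and 14 (without control 4) to 17 lower, against 10.2% to 11% and 8.54% to 9.09% (-0.21 to -0.19). The difference had 26 to 27 above and 0 below 0, against 18.5% to 19.7% and 16.8% to 18.6% (0.41 to 0.49). Control sets had 6 to 11 higher and 8 to 22 lower (-0.15 to -0.060), and NAC sets 0 to 0 higher and 30 to 37 lower (-0.55 to -0.41).

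Signs changed over all libraries as follows. Tpx2 had 0.028 (library size alone), 0.068 (upper quartile factors) and -0.15 to 0.078 with 1 library left out. Spc24 had 0.019 (upper quartile factors). Kif11 had 0.031 (upper quartile factors). Incenp had -0.0066 (limma-voom), -0.0071 (replicate block), -0.0068 (term for the library set), -0.032 (gene length offset with replicate block) and -0.081 to 0.10 with 1 library left out. Kif2c had -0.023 (limma-voom), -0.020 (replicate block), -0.018 (term for the library set), -0.044 (gene length offset with replicate block) and -0.12 to 0.16 with 1 library left out. Kif22 had -0.035 to 0.25 with 1 library left out. Signs changed in libraries 1 and 2 as follows. Bub3 had -0.016 (DESeq2 size factors), -0.016 (DESeq2 Wald test), -0.00068 (limma-voom), -0.049 (no filter on low counts), -0.0063 (at least 1 CPM in 5 libraries), -0.00064 (replicate block), -0.019 (fit to libraries 1 and 2 alone) and -0.058 to 0.065 with 1 library left out. Kif11 had 0.046 (upper quartile factors), 0.048 (gene length offset), 0.045 (gene length offset with replicate block) and -0.24 to 0.11 with 1 library left out. Kif4 had 0.012 (upper quartile factors). Kif20a had 0.024 (upper quartile factors) and -0.19 to 0.034 with 1 library left out. Spc24 had -0.075 (gene length offset), -0.075 (gene length offset with replicate block) and -0.014 to 0.24 with 1 library left out. Cenpe had 0.040 (gene length offset), 0.038 (gene length offset with replicate block) and -0.30 to 0.055 with 1 library left out. Top2a had 0.0048 (gene length offset), 0.0046 (gene length offset with replicate block). Cdc20 had -0.054 (gene length offset), -0.057 (gene length offset with replicate block). Signs changed in libraries 3 to 5 as follows. Kif11 had 0.018 (library size alone), 0.021 (upper quartile factors) and -0.069 to 0.012 with 1 library left out. Signs changed for the difference between sets as follows. Kif11 had 0.025 (upper quartile factors), 0.10 (gene length offset), 0.099 (gene length offset with replicate block) and -0.22 to 0.14 with 1 library left out. Top2a had -0.019 (no filter on low counts) and -0.060 to 0.11 with 1 library left out. Cenpe had -0.088 to 0.26 with 1 library left out.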
